A study of Homo sapiens with 15 samples.

Results

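S100 genes encode small calcium-binding proteins, each with a pair of EF-hand loops, and most of them lie in one stretch of human chromosome 1. The members described here are S100A2, S100A4, S100A6, S100A7, S100A8, S100A9, S100A10, S100A11, S100A14 and S100A16. They are the entries of the 15 count files that carry one of these symbols, 10 of 60649 genes. RNA was sequenced from HSC-5, an established line of human cutaneous squamous cell carcinoma cells. The 5 conditions, with 3 biological replicates each, are sgNeg (empty vector, the wild-type control), sgPRMT5-1 and sgPRMT5-2 (PRMT5 knockout with different guide RNAs), and sgWDR77-1 and sgWDR77-2 (WDR77 knockout with different guide RNAs). All 15 libraries carry the label neomycin for treatment. The paper names selection with the neomycin analogue G418 for the infected cells of its proliferation assays. The study asks whether the arginine methyltransferase PRMT5 and its binding partner WDR77 act together in these tumours.

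S100A8 and S100A9 form a heterodimer that is released as an alarm signal, and squamous epithelia make them under stress. S100A7 is another antimicrobial S100 protein of inflamed skin. S100A10 is the partner of annexin A2 at the cell membrane, and it does not bind calcium. S100A2 is made in basal keratinocytes and is a target gene of p63. S100A4 binds nonmuscle myosin and is best known from motile mesenchymal cells. S100A6 and S100A11 bind annexins, and S100A14 and S100A16 are epithelial proteins that are neighbours on the chromosome.

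Each library holds 5146711 to 6730428 reads counted on genes. A value of 1 CPM (reads per 1e6 reads, after scaling between libraries) is therefore about 5 to 7 reads, and a member with no reads can still be present below that level. Of the sgNeg libraries, replicate 2 has the most reads on no counted feature (7.16%). It is also the lowest for S100A2, S100A6, S100A10, S100A11, S100A14 and S100A16. Whether these are linked was not tested. Values below are CPM, in the order of replicates 1, 2 and 3. The adjusted p-values come from limma voom with the Benjamini-Hochberg method, and they measure the spread between biological replicates. Among the other settings tried, a minimum log2 fold change of 1 removes every call below that size. For genes other than the members, each call named lies in 3 of 3 libraries beyond all of sgNeg unless stated. In bulk RNA, fewer cells with a transcript and less of it per cell cannot be told apart.

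The guides were checked first through the genes they target. PRMT5 read 59.4, 50.4 and 67.6 CPM in sgNeg, 32.7, 35.4 and 41.2 in sgPRMT5-1, and 43.1, 44.4 and 39.1 in sgPRMT5-2. Every library of both guides lay below all 3 sgNeg libraries. PRMT5 fell with both guides, by -0.69 in log2 (standard error 0.131, adjusted p = 0.00413) and by -0.48 (standard error 0.128, adjusted p = 0.00737). WDR77 read 126, 116 and 119 CPM in sgNeg, 31.0, 52.9 and 54.1 in sgWDR77-1, and 26.6, 25.0 and 22.0 in sgWDR77-2. It fell with both guides too, by -1.43 in log2 (standard error 0.150, adjusted p = 3.04e-06) and -2.29 (standard error 0.167, adjusted p = 1.13e-08), in 3 of 3 libraries each. A guide acts on the DNA, and the RNA level of a knockout gene does not measure the protein that is left.

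Neither target was called in the knockout of the other gene. WDR77 had log2 fold changes of 0.16 (adjusted p = 0.575) with sgPRMT5-1 and 0.04 (adjusted p = 0.841) with sgPRMT5-2. PRMT5 had -0.01 (adjusted p = 0.976) with sgWDR77-1 and 0.24 (adjusted p = 0.278) with sgWDR77-2. These are RNA values. From blots, HSC-5 cells included, the paper reports that depletion of either gene also lowered the protein of the other.

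In sgNeg the S100 genes span a wide range, and 6 of the 10 are plentiful. Per kilobase of exon, S100A2 came highest at 453 CPM, beside S100A11 at 446, and the libraries of these genes overlap. Then came S100A14 at 311, S100A10 at 251, S100A6 at 177 and S100A16 at 119. S100A9 (17.6), S100A4 (2.98) and S100A8 (0.451) were far lower, and S100A7 had no reads. Apart from S100A2 and S100A11, the libraries of neighbours in this order did not overlap. Measured per kilobase of the longest transcript instead, S100A10 (378) came above S100A14 (326), and S100A2 (717) stood alone at the top.

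**Figure D1:**
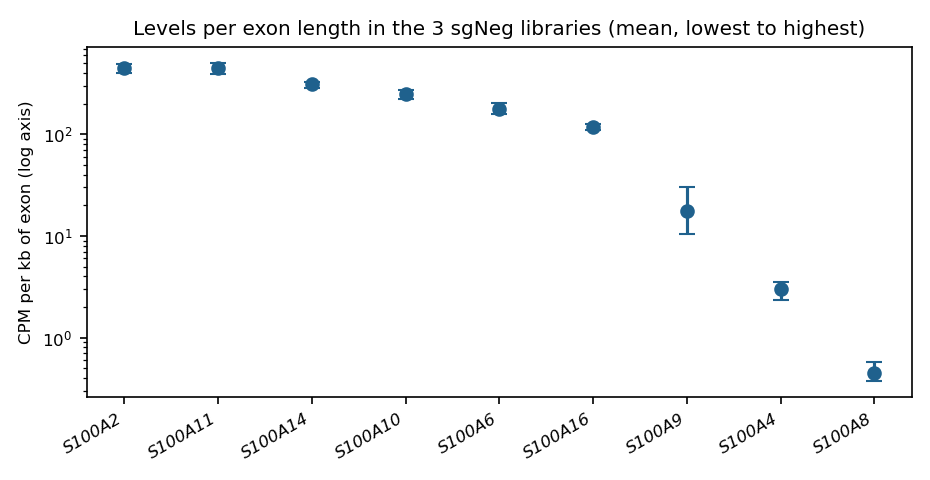
S100 members in the sgNeg libraries: mean CPM per kilobase of exon on a log scale, with the lowest and highest of 3 libraries. S100A7 had no reads and has no point.

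The plot of sgNeg levels shows a gap between S100A16 and S100A9. The members below this gap rest on few reads, so their values are less precise.

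Of the 10 members, 8 had enough reads to be tested, and S100A7 and S100A8 did not. With sgPRMT5-1, 1 member rose (S100A2) and 1 fell (S100A10), where 1.06% of the 14063 genes tested were higher and 1.72% were lower. With sgPRMT5-2, 2 rose (S100A2 and S100A16) and 3 fell (S100A4, S100A9 and S100A10), where 14.9% of all genes were higher and 15.9% lower. sgPRMT5-2 therefore changed many genes besides these. sgWDR77-1 gave 2 members lower (S100A2 and S100A10) and none higher, where 3.77% of all genes were higher and 5.57% lower. With sgWDR77-2, 1 member rose (S100A2), where 1.76% of genes were higher and 3.13% lower. S100A2 thus passed the test with all 4 guides, upward with 3 of them and downward with sgWDR77-1. All 4 comparisons share the sgNeg libraries. The same shares of all genes apply to the other gene lists counted with these guides below.

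The tested members went in both directions, so a median over them does not measure how far they moved. Their median log2 fold change was 0.02 with sgPRMT5-1 and 0.05 with sgPRMT5-2, beside 0.00 and -0.02 for all genes. It was -0.22 with sgWDR77-1 and 0.01 with sgWDR77-2, beside 0.00 and 0.01 for all genes. They are taken one at a time below.

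**Figure D2:**
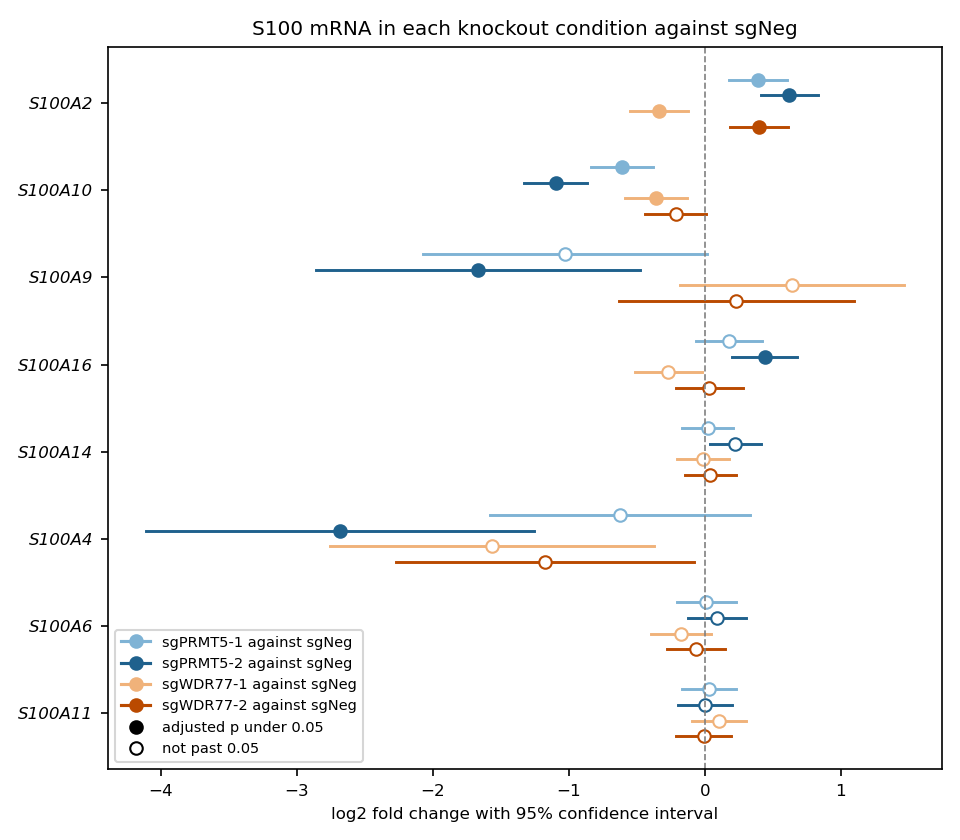
Log2 fold change of the 8 tested S100 members for each guide against sgNeg, with 95% confidence intervals. Filled points have an adjusted p under 0.05.

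S100A10 (ENSG00000197747.9; hg38 chromosome 1, 151982915 to 151993859, minus strand) fell with both PRMT5 guides. It is the annexin A2 partner. S100A10 read 276, 227 and 258 CPM in sgNeg, 191, 165 and 144 in sgPRMT5-1, and 120.4, 116 and 118 in sgPRMT5-2. Each PRMT5 knockout library lay below each sgNeg library, and the groups did not overlap. The log2 fold change was -0.61 with sgPRMT5-1 (standard error 0.110, adjusted p = 0.00284) and -1.10 with sgPRMT5-2 (standard error 0.112, adjusted p = 3.75e-07), in 3 of 3 libraries each. No single library left out ended these calls, and no other scaling, filter or model did.

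In the WDR77 knockouts S100A10 lay closer to sgNeg. It read 182, 206 and 204 CPM in sgWDR77-1 and 187, 243 and 227 in sgWDR77-2. All 3 libraries of sgWDR77-1 lay below sgNeg, while sgWDR77-2 overlapped it. The test gave -0.36 with sgWDR77-1 (standard error 0.109, adjusted p = 0.042) and -0.21 with sgWDR77-2 (adjusted p = 0.288). The sgWDR77-1 call is close to the threshold and was lost in 13 of 24 alternative settings, with adjusted p from 0.0249 to 0.167 over all of them. It was lost with upper-quartile scaling (-0.31), with no filter (-0.36), with the replicate block (-0.36), in a fit of only the groups compared (-0.35), and by definition with a minimum log2 fold change of 1. It was also lost without sgNeg replicate 1 (-0.29) or 3 (-0.34), sgWDR77-1 replicate 1 (-0.31) or 2 (-0.39), sgPRMT5-1 replicate 2 (-0.36), or sgPRMT5-2 replicate 1, 2 or 3 (-0.36 each).

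The transcript of annexin A2 itself did not follow S100A10 in the PRMT5 knockouts. ANXA2 read 921, 825 and 891 CPM in sgNeg, and its log2 fold change was 0.03 with sgPRMT5-1 (adjusted p = 0.880) and 0.04 with sgPRMT5-2 (adjusted p = 0.701). Per ANXA2 read, S100A10 had 0.288 ± 0.0123 reads in sgNeg (SD, n = 3), with 0.275 as the lowest library. The values were 0.215, 0.189 and 0.156 in sgPRMT5-1 and 0.138, 0.127 and 0.127 in sgPRMT5-2, below sgNeg in every library. In the WDR77 knockouts they were 0.262, 0.302 and 0.307 with sgWDR77-1 and 0.233, 0.301 and 0.280 with sgWDR77-2. Replicate 1 of each lay below the lowest sgNeg library, and the means of 0.290 and 0.271 lie near that of sgNeg. With sgWDR77-1 both transcripts were lower: ANXA2 read 695, 681 and 666 CPM and fell by -0.37 in log2 (adjusted p = 0.00229), beside -0.36 for S100A10. This ANXA2 call was lost in a fit of only the groups compared (-0.36), and its adjusted p ran from 5.30e-05 to 0.0982 over 24 settings. With sgWDR77-2 ANXA2 was not called (-0.12, adjusted p = 0.375).

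S100A2 (ENSG00000196754.13; chromosome 1, 153561108 to 153567890, minus strand), the p63 target, is the member with the most reads. It read 757, 625 and 719.8 CPM in sgNeg, 797, 929 and 1044 in sgPRMT5-1, and 1047, 1059 and 1119 in sgPRMT5-2. Each PRMT5 knockout library lay above each sgNeg library. The means were 700.5 ± 67.9, 923 ± 124 and 1075 ± 38.4 CPM (SD, n = 3). S100A2 rose by 0.62 in log2 with sgPRMT5-2 (standard error 0.102, adjusted p = 0.000106, 3 of 3 libraries). Only a minimum log2 fold change of 1 removed that call.

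For sgPRMT5-1 the S100A2 value is 0.39 (standard error 0.102, adjusted p = 0.0388, 3 of 3 libraries), and this call is less stable. It was lost in 11 of 24 settings, with adjusted p from 0.0116 to 0.258. These were library totals (0.35), limma-trend (0.39), the replicate block (0.39), a minimum log2 fold change of 1, and each of 7 libraries left out. The libraries were sgNeg replicate 2 (0.31) or 3 (0.42), sgPRMT5-1 replicate 2 (0.38) or 3 (0.30), sgPRMT5-2 replicate 2 (0.39) or 3 (0.39), and sgWDR77-2 replicate 2 (0.39).

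The WDR77 guides moved S100A2 in opposite directions. It read 537, 590.5 and 534 CPM in sgWDR77-1, below all of sgNeg, and 999.6, 973 and 802 in sgWDR77-2, above all of sgNeg. The log2 fold change was -0.34 with sgWDR77-1 (standard error 0.104, adjusted p = 0.0447) and 0.40 with sgWDR77-2 (standard error 0.102, adjusted p = 0.0244), in 3 of 3 libraries each. Compared directly, sgWDR77-2 was 0.73 above sgWDR77-1 (standard error 0.103, adjusted p = 0.000627), and all 3 libraries of one guide lay above all 3 of the other. This difference between guides to the same gene was lost only with a minimum log2 fold change of 1.

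Each of these S100A2 calls against sgNeg depends on single libraries. With sgWDR77-2 it was lost without sgNeg replicate 2 (0.32), sgWDR77-2 replicate 1 (0.34) or replicate 2 (0.36), and adjusted p ran from 0.00726 to 0.154 over 24 settings. With sgWDR77-1 it was lost in 15 of 24 settings, and adjusted p ran from 0.0315 to 0.173. The settings were limma-trend (-0.34), no filter (-0.33), only the groups compared (-0.33), the replicate block (-0.34), upper-quartile scaling (-0.29) and a minimum log2 fold change of 1. The libraries were sgNeg replicate 1 (-0.28) or 3 (-0.31), sgWDR77-1 replicate 1 (-0.32) or 3 (-0.31), and, at -0.34 each, sgPRMT5-1 replicate 2, sgPRMT5-2 replicate 1, 2 or 3 and sgWDR77-2 replicate 2.

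**Figure D3:**
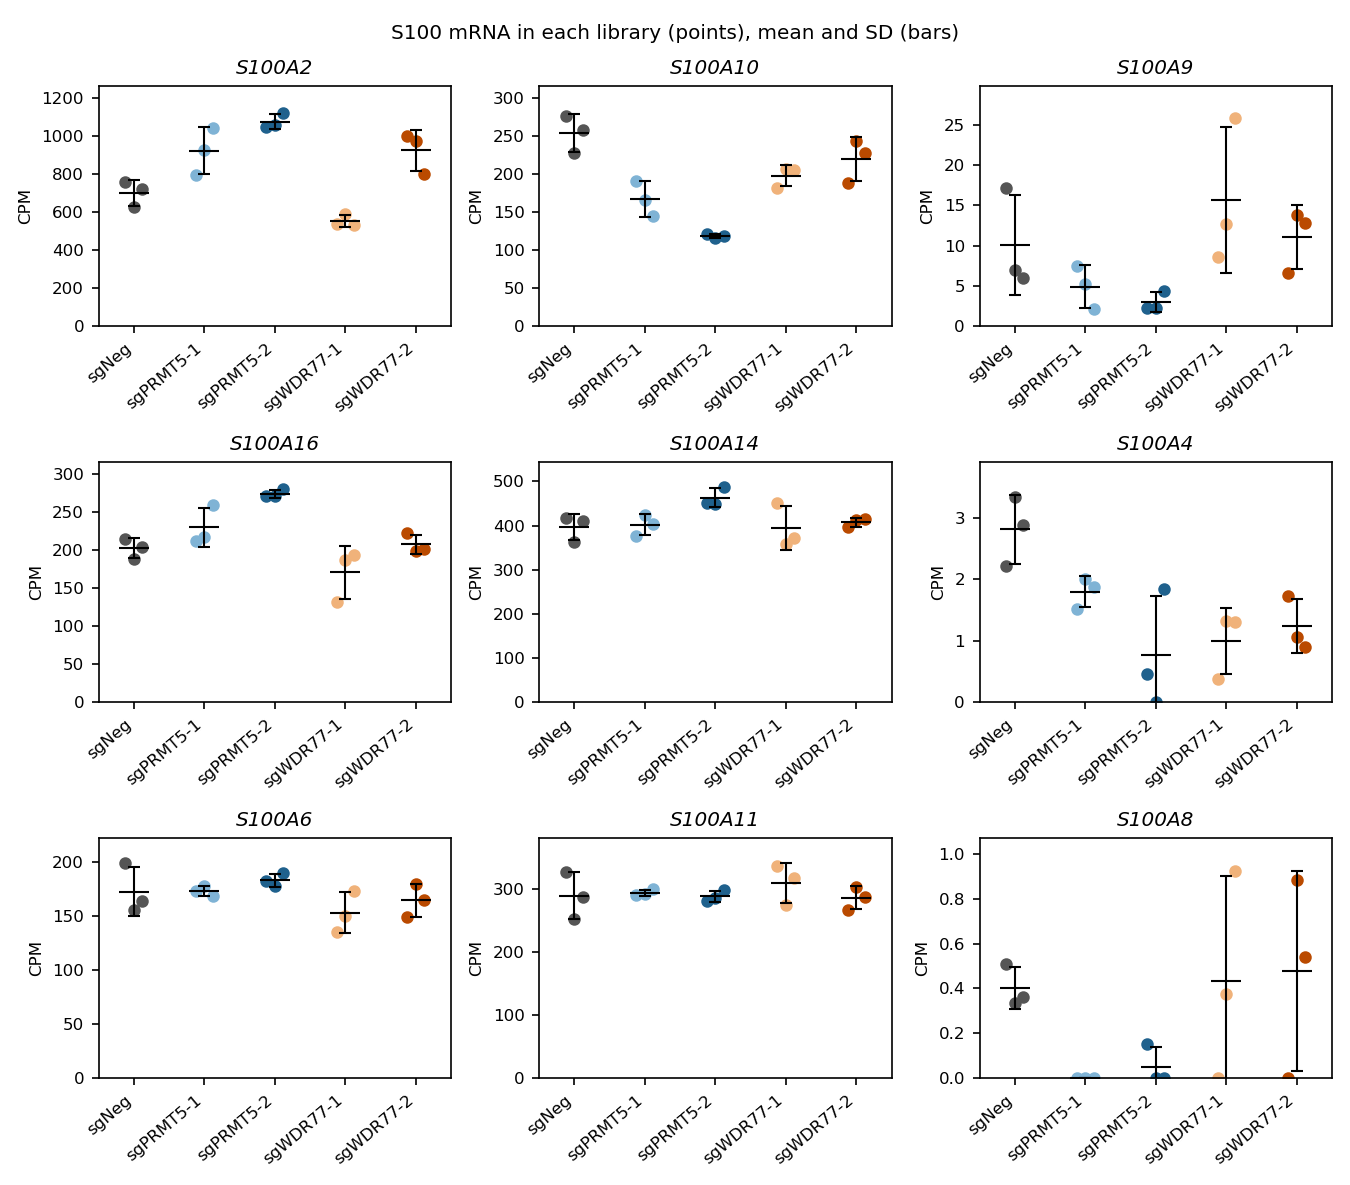
CPM of 9 S100 members in each of the 15 libraries by condition, with the mean and SD of each group. S100A7 had no reads in any library.

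In the panels by library, S100A10 steps down from sgNeg through sgPRMT5-1 to sgPRMT5-2. S100A2 steps up over the same groups, and its sgWDR77-1 libraries lie lowest. S100A9 spreads widely between replicates of sgNeg and sgWDR77-1.

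S100A9 (ENSG00000163220.11; chromosome 1, 153357854 to 153361023, plus strand) is the only member on the plus strand. It read 17.2, 7.01 and 5.97 CPM in sgNeg, 7.43, 5.20 and 2.04 in sgPRMT5-1, and 2.27, 2.20 and 4.36 in sgPRMT5-2. All 3 sgPRMT5-2 libraries lay below sgNeg, while sgPRMT5-1 overlapped it. S100A9 fell by -1.67 in log2 with sgPRMT5-2 (standard error 0.573, adjusted p = 0.0312, 3 of 3 libraries) and was not called with sgPRMT5-1 (-1.03, adjusted p = 0.307). The sgPRMT5-2 call was lost with no filter (-1.67) and without sgNeg replicate 1 (-1.20), sgPRMT5-2 replicate 1 (-1.49), replicate 2 (-1.51) or replicate 3 (-1.97). Over 24 settings its adjusted p ran from 0.00314 to 0.146.

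S100A9 was not called in the WDR77 knockouts. It read 8.55, 12.6 and 25.9 CPM in sgWDR77-1 and 6.55, 13.8 and 12.8 in sgWDR77-2, and both groups overlapped sgNeg. The log2 fold changes were 0.64 (adjusted p = 0.338) and 0.23 (adjusted p = 0.817).

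S100A8 (ENSG00000143546.10; chromosome 1, 153390032 to 153391073, minus strand), the partner of S100A9, was close to absent. Summed over 3 libraries, sgNeg had 7 reads of it, sgPRMT5-1 had 0, sgPRMT5-2 had 1, sgWDR77-1 had 7 and sgWDR77-2 had 8. With 3 reads taken as the floor for none, sgPRMT5-1 was at least 2.47-fold lower than the 7 reads of sgNeg taken as they are. With counting error in both groups, the exact 95% interval of that ratio to sgNeg reaches up to 0.655. The ratio was 0.135 for sgPRMT5-2 (95% interval 0.00299 to 1.05), 1.08 for sgWDR77-1 (0.324 to 3.61) and 1.21 for sgWDR77-2 (0.384 to 3.93). These intervals cover counting error only, and each of the last 3 includes 1.

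S100A7 (ENSG00000143556.9; chromosome 1, 153457744 to 153460651, minus strand) had no reads in any of the 15 libraries. With 3 reads over a group as the floor, it could lie below 0.163 to 0.186 CPM and go unseen. S100A7A, a related gene, had no reads either. Reads that fit several places, such as S100A7 and its relatives S100A7A and S100A7P1, may not be counted on any of them. The absence of S100A7 is therefore uncertain.

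Other genes of the stressed or hyperproliferative epidermis give a setting for S100A9. Of 14 such genes 8 were tested. With sgPRMT5-1 there were 0 higher and 2 lower, with sgPRMT5-2 3 and 3, with sgWDR77-1 3 and 1, and with sgWDR77-2 2 and 1. LCN2, another antimicrobial gene, read 68.0, 46.3 and 41.4 CPM in sgNeg, 21.1, 21.9 and 24.0 in sgPRMT5-2, and 101, 86.7 and 158 in sgWDR77-1. It fell with sgPRMT5-2 (-1.19, adjusted p = 0.00242) and rose with sgWDR77-1 (1.13, adjusted p = 0.00308), in 3 of 3 libraries each. SLPI fell with sgPRMT5-2 as S100A9 did (-1.94, adjusted p = 0.000454), while RNASE7 rose with it (2.23, adjusted p = 5.47e-06) and with sgWDR77-1 (1.41, adjusted p = 0.00505). SLPI also fell with sgPRMT5-1 (-1.47, adjusted p = 0.0163), where S100A9 was not called. RNASE7 also rose with sgWDR77-2 (1.07, adjusted p = 0.0492). These further calls of SLPI and RNASE7 were lost in 3 and 13 of 24 settings. KRT6A fell with all 4 guides, by -1.66 (adjusted p = 0.00134), -3.69 (adjusted p = 3.96e-06), -3.70 (adjusted p = 4.61e-05) and -2.15 (adjusted p = 0.000183).

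**Figure D4:**
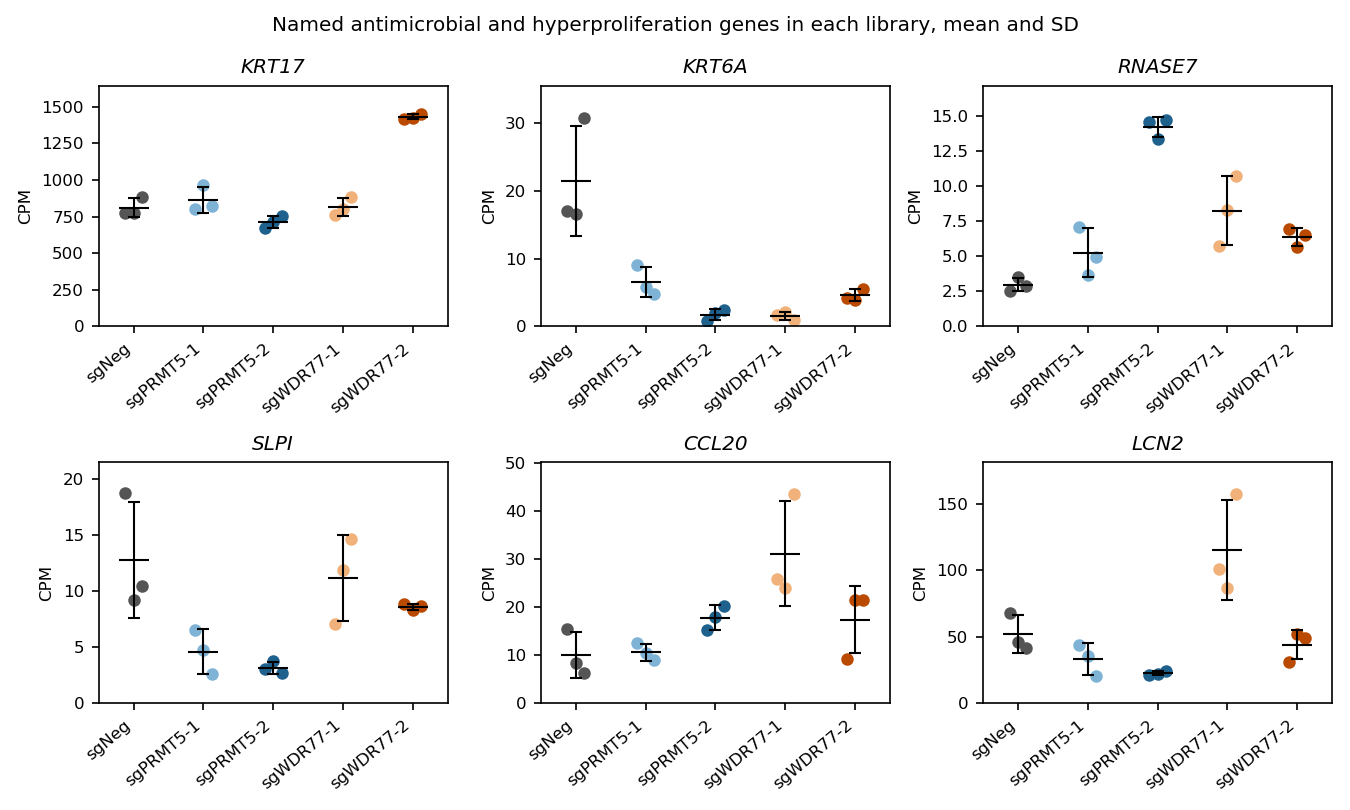
CPM of KRT17, KRT6A, RNASE7, SLPI, CCL20 and LCN2 in each of the 15 libraries by condition.

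Against sgNeg, the panels of these epidermal genes show no common direction. KRT17 rose with sgWDR77-2 (0.82, adjusted p = 2.77e-06) and CCL20 with sgWDR77-1 (1.66, adjusted p = 0.00161). Between the 6 PRMT5 and 6 WDR77 knockout libraries, 0 of the 8 tested were higher and 4 lower. Of all genes, 13.5% were higher and 12.8% lower there. These 4 were LCN2 (-1.38), SLPI (-1.36), CCL20 (-0.70) and KRT17 (-0.46), and S100A9 was lower too. For SLPI 6 of 6 PRMT5 knockout libraries lay below every WDR77 knockout library, and for LCN2, CCL20 and KRT17 4, 1 and 3. The defensins DEFB1, DEFB4A and DEFB103A had no reads in any library. As for S100A7, reads that fit several places may not be counted, so the absence of these genes is uncertain.

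S100A8 and S100A9 are also strong in myeloid blood cells, so markers of those cells were read beside them. FCGR3B and TYROBP had no reads in any library, and PTPRC, LYZ and CSF3R had at most 1 read in a library. The 9 myeloid markers summed to 1.63 to 6.30 CPM, mainly from ITGAM, CSF1R and CD14, with at most 2.41, 1.85 and 1.82 CPM in a library. ITGAM is the most abundant over all 15 libraries, but not in each group. Of these 3, all tested, 0 were called with sgPRMT5-1 or sgWDR77-2, 2 rose with sgPRMT5-2 and 1 rose with sgWDR77-1. At an unadjusted p under 0.05 the sgPRMT5-1 and sgWDR77-2 counts were 0 and 1, and with limma-trend 0 and 0.

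These myeloid calls are unstable. ITGAM rose with sgPRMT5-2 (1.84, adjusted p = 0.0274) and with sgWDR77-1 (2.01, adjusted p = 0.0432), and was lost in 4 and 12 of 23 settings. CSF1R rose with sgPRMT5-2 (1.70, adjusted p = 0.0458) and was lost in 13 of 23. Without sgNeg replicate 3 none of these calls held (1.86, 2.02 and 2.10). They were also lost without sgNeg replicate 2 (1.42 and 1.58 for ITGAM), and other single libraries ended them too. The part of these markers in the S100A9 result was not tested.

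S100A16 (ENSG00000188643.11; chromosome 1, 153606886 to 153613145, minus strand) rose with sgPRMT5-2. It read 215, 188 and 204 CPM in sgNeg, 212, 218 and 259.5 in sgPRMT5-1, and 271, 272 and 280.0 in sgPRMT5-2. All of sgPRMT5-2 lay above all of sgNeg, and sgPRMT5-1 overlapped sgNeg. The log2 fold change was 0.44 with sgPRMT5-2 (standard error 0.115, adjusted p = 0.00609, 3 of 3 libraries) and 0.18 with sgPRMT5-1 (adjusted p = 0.46). The sgPRMT5-2 call was lost only with a minimum log2 fold change of 1. In the WDR77 knockouts S100A16 read 131, 188 and 193 CPM and 223, 198 and 202 CPM and was not called (-0.27, adjusted p = 0.171, and 0.04, adjusted p = 0.910).

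S100A14 (ENSG00000189334.9; chromosome 1, 153614255 to 153616986, minus strand), the neighbour of S100A16, was called with none of the guides. It read 417, 362 and 411 CPM in sgNeg and 451, 449.7 and 487 in sgPRMT5-2, with all of sgPRMT5-2 above all of sgNeg. The log2 fold change was 0.22 (adjusted p = 0.0643). It passed with no filter (0.22), in a fit of only the groups compared (0.23), with upper-quartile scaling (0.32) and without sgWDR77-1 replicate 1 (0.23). Over the 15 libraries S100A14 stayed between 358 and 487 CPM.

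S100A4 (ENSG00000196154.12; chromosome 1, 153543613 to 153550136, minus strand) was rare, with 13, 20 and 16 reads in sgNeg. It had 10, 12 and 11 reads in sgPRMT5-1, 3, 0 and 11 in sgPRMT5-2, 2, 7 and 7 in sgWDR77-1, and 9, 6 and 5 in sgWDR77-2. Each knockout library had fewer reads than each sgNeg library. S100A4 fell with sgPRMT5-2 (-2.68, standard error 0.688, adjusted p = 0.00532, 3 of 3 libraries), and the size of this value depends on the small counts. It was -1.88 with limma-trend, -1.54 without sgPRMT5-2 replicate 2 and -3.76 without sgPRMT5-2 replicate 3. The other guides gave -0.62 (adjusted p = 0.531), -1.56 (adjusted p = 0.0899) and -1.17 (adjusted p = 0.218), in the order sgPRMT5-1, sgWDR77-1 and sgWDR77-2.

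S100A6 (ENSG00000197956.10; chromosome 1, 153534599 to 153536244, minus strand) and S100A11 (ENSG00000163191.6; chromosome 1, 152032506 to 152047907, minus strand) were called in no comparison. S100A6 stayed between 135 and 198 CPM and S100A11 between 253 and 338 CPM. S100A11 has 8 processed pseudogenes in the count files that may share its reads. S100A6 shares 37 exon bases, 3.81% of its length, with an antisense noncoding gene.

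Guides to the same gene were compared next. Against sgPRMT5-1, sgPRMT5-2 gave 1 member lower (S100A10) and none higher, where 3.43% of all genes were higher and 4.1% lower. The median was 0.03 for the tested members and -0.01 for all genes. S100A10 was -0.49 (standard error 0.114, adjusted p = 0.011), with all 3 libraries of sgPRMT5-2 below all 3 of sgPRMT5-1. That call was lost without sgPRMT5-1 replicate 1 (-0.39) or sgPRMT5-2 replicate 2 (-0.47), and with a minimum log2 fold change of 1. Other members passed in some settings. In a fit of only the groups compared S100A16 (0.27), S100A14 (0.22) and S100A2 (0.24) were higher and S100A4 (-2.05) lower, and without sgWDR77-1 replicate 1 the same held for S100A16 (0.26), S100A14 (0.20) and S100A4 (-2.06). S100A4 also passed without sgPRMT5-2 replicate 3 (-3.13). PRMT5 itself did not differ by the test between these guides (0.22, adjusted p = 0.338).

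Between the WDR77 guides, 1 member was higher in sgWDR77-2 (S100A2, 0.73 as above) and none lower, where 1.46% of all genes were higher and 0.612% lower. Members had a median of 0.13, beside -0.01 for all genes. S100A10 was not called between them (0.15). WDR77 itself differed between these guides: it was -0.87 in sgWDR77-2 (adjusted p = 0.018, 3 of 3 libraries), with means of 24.5 CPM beside 46.0 in sgWDR77-1. That call was lost with no filter (-0.87), in a fit of only the groups compared (-0.85), with a minimum log2 fold change of 1, and without sgWDR77-2 replicate 1 (-0.92) or 2 (-0.88). Its adjusted p ran from 7.14e-05 to 0.158 over 24 settings.

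The knockouts of the different genes were compared with both guides of each, 6 libraries against 6. sgNeg is not part of this difference, but its libraries are in the same fit of all 15 libraries. In PRMT5 knockout 2 members were higher than in WDR77 knockout (S100A2 and S100A16) and 2 lower (S100A9 and S100A10), where 13.5% of all genes were higher and 12.8% lower. The median of the members was 0.04 and that of all genes -0.01. S100A10 was -0.57 (standard error 0.0792, adjusted p = 2.75e-05), with 5 of 6 PRMT5 knockout libraries below every WDR77 knockout library. S100A9 was -1.78 (standard error 0.371, adjusted p = 0.00138, 5 of 6 libraries below). The libraries count as replicates in this test, so its p-values do not cover the spread between guides, of which there are 2 per gene.

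S100A2 and S100A16 went the other way. S100A2 was 0.48 higher in PRMT5 knockout (standard error 0.0722, adjusted p = 6.51e-05), with 4 of 6 libraries above every WDR77 knockout library. S100A16 was 0.43 higher (standard error 0.0823, adjusted p = 0.000753, 4 of 6 libraries above). By guide, the S100A2 means were 923 CPM in sgPRMT5-1 and 925 in sgWDR77-2, and 1075 in sgPRMT5-2 and 554 in sgWDR77-1. The S100A2 means of the first pair of guides are therefore close, and these guides were not tested against each other. The difference of 0.48 is smaller than the 0.73 between the WDR77 guides. Of these calls, those of S100A2, S100A10 and S100A16 were lost only with a minimum log2 fold change of 1, and that of S100A9 was never lost.

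Taken with both guides against sgNeg, 6 libraries against 3 and again with libraries as replicates, PRMT5 knockout gave 1 member higher (S100A2) and 2 lower (S100A9 and S100A10), where 7.62% of 14076 genes were higher and 8.9% lower. The median was 0.03 for the members and -0.02 for all genes. S100A10 was -0.86 (adjusted p = 0.00248) and S100A2 was 0.50 (adjusted p = 0.00815), each in 6 of 6 libraries. Without sgNeg replicate 2 the S100A2 value was 0.43 and the call was lost. S100A9 was -1.35 (adjusted p = 0.0344, 5 of 6 libraries). Its call was lost without sgNeg replicate 1 (-0.88) or 2 (-1.53), sgPRMT5-1 replicate 3 (-1.21), or sgPRMT5-2 replicate 1 (-1.22), 2 (-1.23) or 3 (-1.41). S100A16 was not called (0.30, adjusted p = 0.0511).

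WDR77 knockout with both guides gave 0 members called by limma voom, where 0.881% of 14071 genes were higher and 2.41% lower. At an unadjusted p under 0.05 there were 2 members, and with limma-trend 0. The median was -0.04 for the members and 0.02 for all genes. S100A2 averaged 0.04 (adjusted p = 0.952), with 3 libraries above all of sgNeg and 3 below all of it. S100A10 was -0.27 (adjusted p = 0.212) and S100A9 was 0.45 (adjusted p = 0.613).

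The other S100 genes were looked at beside the members. Of 11, S100A3, S100A13 and S100P were tested, and limma voom called 0 in all 9 comparisons. At an unadjusted p under 0.05 there were 0 in every comparison but WDR77 knockout against sgNeg, which had 1, and limma-trend called 0. S100A5, S100A7A, S100A7L2, S100B and S100Z had no reads in any library, and S100A13 read 13.5 to 23.5 CPM. Of the 7 genes that fuse an S100 domain to a long repeat, FLG and TCHHL1 were tested in 7 comparisons, 1 of them in WDR77 knockout against sgNeg and 0 in PRMT5 knockout against sgNeg. Where tested, limma voom called 0, with 0 at an unadjusted p under 0.05 and 0 with limma-trend. RPTN and CRNN had no reads.

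Proteins that bind S100 members were read through their transcripts. Of 12 such genes 11 were tested, and 1 was higher and 0 lower with sgPRMT5-1, 2 and 2 with sgPRMT5-2, 1 and 3 with sgWDR77-1, and 1 and 2 with sgWDR77-2. MYH9, the myosin bound by S100A4, read 588, 663 and 716 CPM in sgNeg and 1265, 1285 and 1250.3 in sgPRMT5-2. It rose there (0.95, adjusted p = 2.35e-06, 3 of 3 libraries). It also rose with sgPRMT5-1 (0.44, adjusted p = 0.0388), sgWDR77-1 (0.36, adjusted p = 0.0480) and sgWDR77-2 (0.44, adjusted p = 0.0244), where S100A4 was not called. These 3 calls were lost in 11, 16 and 4 of 24 settings, each without sgNeg replicate 1 (0.36, 0.29 and 0.37) or 2 (0.44, 0.37 and 0.45), and without other single libraries too. PLAT, whose protein binds S100A10, fell with sgPRMT5-2 (-0.84, adjusted p = 0.000106), sgWDR77-1 (-0.77, adjusted p = 0.00123) and sgWDR77-2 (-0.70, adjusted p = 0.0038). ANXA5 rose with sgPRMT5-2 (0.42, adjusted p = 0.0047). ANXA11, bound by S100A6, fell with both WDR77 guides (-0.51, adjusted p = 0.00115, and -0.43, adjusted p = 0.00647).

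Of 6 genes for reported receptors of S100A8 and S100A9, 4 were tested. With sgPRMT5-1 limma voom called 0, with 0 at an unadjusted p under 0.05 and 0 with limma-trend. With sgPRMT5-2 2 fell (ALCAM, -0.37, adjusted p = 0.0168, and NPTN, -0.26, adjusted p = 0.0171). With each WDR77 guide 1 fell (NPTN, -0.31 each, adjusted p of at most 0.0310). All of these calls were lost without sgNeg replicate 1 (-0.36 for ALCAM, and -0.23, -0.28 and -0.28 for NPTN) and with upper-quartile scaling (-0.28, and -0.17, -0.26 and -0.28). In all, ALCAM was lost in 6 of 24 settings and NPTN in 5, 6 and 9, other single libraries among them. TLR4 had no reads in any library and CD36 at most 2 in a library.

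Markers of cell type were summed in each library to describe the cells that hold these S100 transcripts. The 8 keratinocyte markers summed to 2344 to 2774 CPM in sgNeg. The PRMT5 guides gave 2147 to 2402 (sgPRMT5-1) and 1836 to 1934 (sgPRMT5-2), and the WDR77 guides 2009 to 2343 (sgWDR77-1) and 2611 to 2730 (sgWDR77-2). KRT17 was the most abundant, and KRT14 had only 1 to 4 reads in a library. KRT17 made up 53.3% to 54.4% of the sum in sgWDR77-2, beside 31.7% to 33.1% in sgNeg. Similar sums can therefore hold different mixes of markers. Of 7 tested, 0 rose and 3 fell with sgPRMT5-1, 1 and 3 with sgPRMT5-2, 1 and 3 with sgWDR77-1, and 2 and 2 with sgWDR77-2. KRT5 fell with all 4 guides, by -1.29 (adjusted p = 1.07e-05), -3.55 (adjusted p = 1.21e-12), -4.01 (adjusted p = 8.83e-13) and -2.83 (adjusted p = 5.28e-11). S100A2, a gene of basal keratinocytes like KRT5, rose with 3 of these guides and fell with sgWDR77-1 (-0.34). Except with sgPRMT5-2, these S100A2 calls were lost in several settings, as given above.

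Other keratinocyte markers went both ways, as the members did. PKP1 fell with sgPRMT5-1 (-1.96, adjusted p = 0.00169), sgPRMT5-2 (-2.76, adjusted p = 3.17e-05) and sgWDR77-1 (-1.67, adjusted p = 0.00231). DSG3 fell with sgPRMT5-2 (-0.90, adjusted p = 2.22e-05), sgWDR77-1 (-0.97, adjusted p = 7.10e-05) and sgWDR77-2 (-0.67, adjusted p = 0.00269). It also fell with sgPRMT5-1 (-0.51, adjusted p = 0.0232), a call lost in 5 of 24 settings. CDH1 rose with sgPRMT5-2 (0.32, adjusted p = 0.00318), sgWDR77-1 (0.44, adjusted p = 0.000869) and sgWDR77-2 (0.35, adjusted p = 0.00822). The CDH1 call was lost with sgWDR77-1 in a fit of only the groups compared (0.45) and with sgWDR77-2 without sgNeg replicate 2 (0.31).

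The 7 fibroblast markers summed to 6.52 to 15.7 CPM, with COL1A1 the most abundant and COL1A2 at no reads. The 6 melanocyte markers summed to 2.54 to 7.59 CPM, with PMEL the most abundant over all 15 libraries and TYR, DCT and S100B at no reads. Of 1 and 2 tested, 1 of each list fell with sgPRMT5-2 (COL1A1, -0.68, adjusted p = 0.0423, with libraries that overlap sgNeg, and PMEL, -1.43, adjusted p = 0.0155). COL1A1 was lost in 9 of 24 settings: limma-trend (-0.65), no filter (-0.68), the replicate block (-0.65), upper-quartile scaling (-0.58), a minimum log2 fold change of 1, and without sgNeg replicate 1 (-0.67) or 2 (-0.58) or sgPRMT5-2 replicate 1 (-0.49) or 2 (-0.60). PMEL was lost without sgNeg replicate 1 (-1.33) or sgPRMT5-2 replicate 2 (-0.88). With the other guides limma voom called 0. There, at an unadjusted p under 0.05, the count was 1 for melanocyte markers with sgPRMT5-1 and 0 otherwise, and limma-trend called 0. Their part in the result was not tested.

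Genes near the members on chromosome 1 were read to see the members in place. The members span 1.63 Mb, and 9 of 10 are on the minus strand. Of 151 other genes within 500 kb of their span 28 were tested. With sgPRMT5-1 there were 0 higher and 1 lower, with sgPRMT5-2 3 and 2, and with sgWDR77-1 2 and 0. With sgWDR77-2 limma voom called 0, beside 5 at an unadjusted p under 0.05 and 0 with limma-trend. Of all genes, 1.06% were higher and 1.72% lower with sgPRMT5-1, and 14.9% and 15.9% with sgPRMT5-2. The shares were 3.77% and 5.57% with sgWDR77-1, and 1.76% and 3.13% with sgWDR77-2. In sgPRMT5-2, CRTC2 (0.70, adjusted p = 0.000477), ILF2 (0.53, adjusted p = 0.00053) and TUFT1 (0.62, adjusted p = 0.00191) rose, as S100A2 and S100A16 did. CREB3L4 (-1.35, adjusted p = 4.17e-05) and CGN (-0.62, adjusted p = 0.00205) fell, as S100A10 did. Only the direction is compared here. Along the chromosome from the first member, CREB3L4 lies at 1.99 Mb, S100A10 at 0.005 Mb and CGN at -0.458 Mb. With sgPRMT5-1, where S100A10 also fell, CREB3L4 was called lower (-0.75, adjusted p = 0.0260) and CGN was not called (-0.21, adjusted p = 0.438). That CREB3L4 call was lost in 6 of 24 settings. CRTC2 also rose with sgWDR77-1 (0.65, adjusted p = 0.00371).

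**Figure D5:**
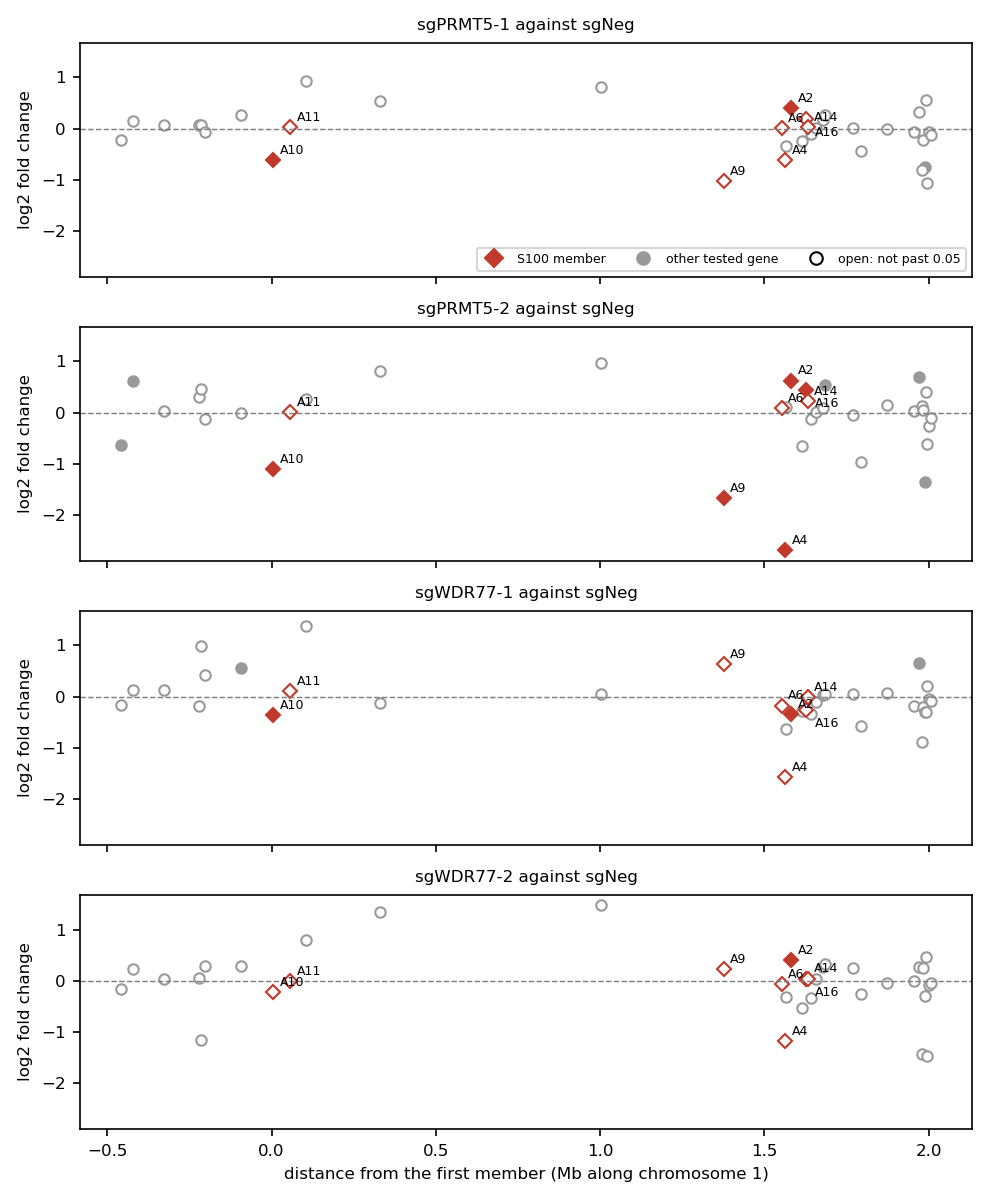
Log2 fold change against sgNeg by distance in Mb from the first S100 member along chromosome 1, for each guide. Diamonds are members, circles are other tested genes within 500 kb, and filled points have an adjusted p under 0.05.

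The map along the chromosome shows called members next to members that were not called. S100A10 and S100A11 are neighbours, and of these S100A10 fell with both PRMT5 guides while S100A11 was called in no setting. S100A16 rose with sgPRMT5-2 while S100A14 beside it was not called, except in the settings named above. S100A4 fell with sgPRMT5-2 and S100A6 beside it was not called. Whether neighbours differ from each other was not tested.

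Start sites of the members were read for sequence motifs, from 250 bases before to 50 after each RefSeq start (GRCh38.p14). All windows and all counts here cover both strands, and a match is a description of the sequence only. TATAAA is in 11.5% of all 35116 windows, the AP-1 motif TGANTCA in 7.71% and the C/EBP motif TTGCNNAA in 10.5%. At the main start, TATAAA lies before S100A4 (31 bases), S100A7 (28), S100A8 (29) and S100A9 (29), which is 4 of 10 members. These 4 are the lowest members in sgNeg. Only the exact string was counted. The windows of S100A6 and S100A14, which are plentiful, hold TATAAG, which differs from it in the last base. TGACTCA lies 52 bases before the start of S100A2, and a C/EBP match 33 bases before that of S100A11. S100A10 has none of these, and 71.7% of its window is G or C, beside a median of 58.7%. Here are the windows of S100A2 (153565795 to 153566094, minus strand), S100A9 (153357604 to 153357903, plus strand) and S100A10 (151993810 to 151994109, minus strand), with matches in capitals.

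S100A2: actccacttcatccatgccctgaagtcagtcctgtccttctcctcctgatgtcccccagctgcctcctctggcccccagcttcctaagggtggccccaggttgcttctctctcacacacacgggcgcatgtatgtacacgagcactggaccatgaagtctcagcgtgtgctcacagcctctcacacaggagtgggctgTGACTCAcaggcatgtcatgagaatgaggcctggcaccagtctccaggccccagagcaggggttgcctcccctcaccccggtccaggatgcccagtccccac

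S100A9: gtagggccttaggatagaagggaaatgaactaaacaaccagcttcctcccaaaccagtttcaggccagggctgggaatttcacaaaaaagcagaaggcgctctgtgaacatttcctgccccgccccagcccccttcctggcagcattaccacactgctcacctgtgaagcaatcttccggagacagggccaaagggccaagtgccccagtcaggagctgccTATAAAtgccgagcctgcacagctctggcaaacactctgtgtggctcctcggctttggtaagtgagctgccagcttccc

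S100A10: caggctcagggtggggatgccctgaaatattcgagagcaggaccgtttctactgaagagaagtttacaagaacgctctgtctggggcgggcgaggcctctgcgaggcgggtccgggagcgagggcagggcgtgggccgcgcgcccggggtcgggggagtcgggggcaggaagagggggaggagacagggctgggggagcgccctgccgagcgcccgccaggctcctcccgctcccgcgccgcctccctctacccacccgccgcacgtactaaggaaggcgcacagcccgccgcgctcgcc

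These data are RNA levels in one cell line with 3 libraries per condition. They hold no protein levels, no methylation of arginine and no time course. The comparisons against sgNeg all use the same 3 sgNeg libraries, so an unusual library there would enter each of them. Guides to the same gene gave different numbers of called genes. Members with few reads (S100A4, S100A8 and S100A9) have wide errors, and S100A7 had no reads.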

How the data were processed

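The authors isolated RNA with RNeasy columns and sequenced single-end libraries. The labels name the TruSeq stranded mRNA kit and the methods name the TruSeq RNA kit. Reads were placed on hg38 with STAR and counted with htseq-count, and the authors tested them with DESeq2. The sources used here give neither the strand setting nor the release of the annotation. The deposited files hold raw counts, one file per library, and these counts are the values used here.

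Gene symbols and positions come from the files and the annotation, and 60507 of 60649 genes were matched to GENCODE. The members and the gene lists were chosen with earlier results of these data known. A gene belongs to the members when its symbol in the count files is one of the 10 named S100 genes. The other lists name the remaining S100 genes, genes that fuse an S100 domain, binding partners, receptors, hyperproliferation and antimicrobial genes, and markers of keratinocytes, myeloid cells, fibroblasts and melanocytes. Neighbours are all genes within 500 kb of the span of the members. The named genes are all members, PRMT5 and WDR77, and from each list up to 6 genes called with a guide against sgNeg, by smallest adjusted p, besides those at or near 0. Of these, some calls that ended under another setting or without a library (other than with a minimum log2 fold change) are given only as counts, which was decided after their values were seen.

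The htseq-count summary entries were 2.75% to 7.16% of reads on no counted feature, 7.09% to 7.93% ambiguous and 9.49% to 13.1% placed several times. The share on no counted feature was 7.16% in sgNeg replicate 2. It was 6.04% and 5.70% in sgWDR77-1 replicates 2 and 3, and at most 4.26% in the others. Libraries were scaled by TMM (trims of 0.3 for ratios and 0.05 for level). Genes with a mean normalized count of at least 3 were tested with limma voom (limma 3.58.1, R 4.3.3), with a mean per condition in one fit of all 15 libraries. Each pooled knockout was compared with sgNeg in a fit of only those 9 libraries. Adjusted p-values follow Benjamini and Hochberg over all genes tested, and a call needs an adjusted p under 0.05. For members with few reads, a floor of 3 reads over the group and exact intervals on summed counts were used. Pearson r across the 15 libraries, on log2 CPM, names the genes most like a member.

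Alternatives tried were RLE, upper-quartile factors and library totals for scaling, no filter or a minimum mean of 10, the replicate number as a block, limma-trend, a minimum log2 fold change of 1, other libraries in the fit, each library left out, and the longest transcript as the length. Replicate libraries differ by more than counting error: over 15 pairs, chi-square divided by its degrees of freedom lay between 1.55 and 17.7. The highest values were those of sgWDR77-1 replicate 1 against replicates 2 and 3 (12.5 and 17.7), beside 3.21 between replicates 2 and 3. The next highest was 9.16, between sgNeg replicates 1 and 2.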

Additional observations from a re-analysis of the deposited data

Results flagged for a closer look

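Each result here is a member whose level differs between groups by a direct test of those groups. S100A2 was higher with sgWDR77-2 than with sgWDR77-1 by 0.73 in log2, with guides that both target WDR77 and left different levels of WDR77 RNA (-0.87, adjusted p = 0.018). S100A10 was lower with sgPRMT5-2 than with sgPRMT5-1, at -0.49, and both guides target PRMT5.

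Between the 6 libraries of PRMT5 knockout and the 6 of WDR77 knockout, S100A9 was -1.78, S100A10 was -0.57, S100A2 was 0.48 and S100A16 was 0.43. These tests take libraries as replicates, and guides to the same gene differ for S100A2 and S100A10. S100A2 had means of 923 CPM in sgPRMT5-1 and 925 in sgWDR77-2. Whether the differences come from the genes or from the guides was not tested.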

How the results depend on the processing

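No member called in either setting changed direction. Members called in neither could change sign, such as S100A9 with sgWDR77-2 (-0.04 to 0.70). Of the member log2 fold changes under alternatives, 1534 kept their side of the threshold, 23 passed it only in the alternative and 67 no longer passed it. Among other genes the numbers were 5715, 86 and 300. Of the counts of members called, 44 moved by more than 1.5 times and 160 did not. The cause was not tested where a count moved, except for the minimum log2 fold change of 1, which can only remove calls.

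With sgPRMT5-1 the count of 2 members became 1 with library totals, with the replicate block and with limma-trend, and 0 with the minimum log2 fold change of 1. With sgPRMT5-2 it went from 5 to 3 with that minimum, to 4 with a minimum mean count of 10, and to 6 with upper-quartile factors and with only the groups compared. With sgWDR77-1 it went from 2 to 0 with upper-quartile factors, no filter, the replicate block, the minimum log2 fold change of 1 and only the groups compared, and to 1 with limma-trend. With sgWDR77-2 it went from 1 to 0 with the minimum log2 fold change of 1.

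Between sgPRMT5-2 and sgPRMT5-1 the count went from 1 to 0 with the minimum log2 fold change of 1 and to 5 with only the groups compared. Between sgWDR77-2 and sgWDR77-1 it went from 1 to 0 with the minimum. Between PRMT5 and WDR77 knockout it went from 4 to 1 with the minimum and to 5 with upper-quartile factors and with no filter. For PRMT5 knockout against sgNeg it went from 3 to 1 with the minimum, to 4 with RLE, upper-quartile factors, no filter and limma-trend, and to 5 with all 15 libraries in one fit.

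Leaving out each library in turn gave 1 to 2 members called with sgPRMT5-1, 4 to 6 with sgPRMT5-2, 0 to 2 with sgWDR77-1 and 0 to 1 with sgWDR77-2. It gave 0 to 4 between the PRMT5 guides, 1 between the WDR77 guides, 4 to 5 between the knockouts, 1 to 4 for PRMT5 knockout against sgNeg and 0 to 1 for WDR77 knockout against sgNeg.

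Equal replicate numbers do not pair. After removing condition means, libraries with the same number had r from -0.209 to 0.178. For 5 of 15 libraries, the mean r with libraries of other conditions was highest for their own number. The replicate block was therefore used only as an alternative.

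Scaling moved the split of all calls. The share of calls that are higher was 38.1% with sgPRMT5-1, 49.4% with upper-quartile factors and 27.1% with library totals. With sgPRMT5-2 it was 48.3%, 62.9% and 37.9%, and for PRMT5 knockout against sgNeg 46.1%, 60.7% and 34.0%. With upper-quartile factors it went from 40.4% to 52.0% with sgWDR77-1 and from 45.5% to 59.1% between the PRMT5 guides. With library totals it went from 70.5% to 59.8% between the WDR77 guides and from 51.3% to 41.0% between the knockouts. With the longest transcript as the length, 7 of 9 levels in sgNeg moved by more than the SD of the sgNeg libraries and 2 did not.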

Other observations

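The genes most like a member over the 15 libraries, by Pearson r on log2 CPM, were TUBA1B (0.967), CCT8 (0.963) and CCT3 (0.960) for S100A2. For S100A10 they were SLC6A8 (0.966), MUC1 (0.958) and LGALS3 (0.958), and for S100A16 PSMC4 (0.975), EIF6 (0.968) and PLEKHB2 (0.967). For S100A9 they were ACSS2 (0.944), KLF11 (0.941) and EPSTI1 (0.938), and for S100A4 LGR6 (0.866), CROCC (0.833) and TGFB3 (0.830). The libraries fall into 5 conditions, so r holds differences between conditions as well as between replicates.

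Genes with r over 0.9 numbered 112 for S100A2, 70 for S100A10, 161 for S100A16, 25 for S100A9 and 0 for S100A4. Summed over all members, the mean CPM was 2028 for sgNeg, 2196 and 2405 for the PRMT5 guides in order, and 1796 and 2222 for the WDR77 guides.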
